A study of Mus musculus with 6 samples.

Results

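The SR and hnRNP genes encode the main families of proteins that choose splice sites, and their mRNA levels are described here in small intestinal epithelial cells from arthritic mice. The arthritis was collagen-induced, a joint inflammation that follows immunisation with collagen. The members are the protein-coding genes of the GENCODE M21 annotation whose symbol is Srsf and a number or begins with Hnrnp. They number 31 of the 55298 genes counted, 11 SR genes and 20 hnRNP genes on 16 chromosomes. The symbol rule has no threshold on a measured value, but the families were chosen with the difference between the groups in view, so that their fold changes and calls between the groups are a description. The genotype label was HIF2α +/- ΔIEC in 3 libraries, which the series names as an intestine-specific HIF2α knockout. In the other 3, from littermate controls, it was HIF2α +/- F/F. Both groups had the arthritis. Neither the meaning of +/-, nor the Cre line behind ΔIEC, nor the age of the mice is given in the sources used here.

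SR proteins join RNA-recognition motifs to a tail rich in arginine and serine. They bind exonic enhancers and recruit the spliceosome to the neighbouring splice sites. hnRNP proteins coat the nascent transcript, often bind silencers and frequently oppose SR proteins at the same exon, and several also govern mRNA export, translation and decay. Many members of both families tune their own level by splicing a poison exon into their mRNA, which sends it to nonsense-mediated decay. In the small intestine the epithelium is renewed without pause from dividing crypt cells that mature on the villus.

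Several members are close paralogs whose ratio to each other differed between the groups although they share coding sequence, and the sequences show where their letters part. For each pair the stretch of 60 coding bases with the highest identity within 1 exon of each gene is given in the coding direction (GRCm38, from the GENCODE M21 transcripts), with the bases that differ in capitals. Pairs were picked after their values had been seen. The first pair is Srsf9 (chr5:115327393-115327452, + strand) and Srsf1 (chr11:88047926-88047985, + strand), identical at 51 bases, with 5 of the differences at the third codon position.
Srsf9: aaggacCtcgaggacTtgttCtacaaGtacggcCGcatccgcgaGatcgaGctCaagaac
Srsf1: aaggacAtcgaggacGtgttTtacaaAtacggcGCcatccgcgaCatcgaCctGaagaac
Hnrnpa0 (chr13:58128122-58128181, - strand) and Hnrnpa1 (chr15:103241467-103241526, + strand) are identical at 41 bases, and 13 of the differences fall at the third codon position.
Hnrnpa0: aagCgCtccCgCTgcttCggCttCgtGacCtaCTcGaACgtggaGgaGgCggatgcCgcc
Hnrnpa1: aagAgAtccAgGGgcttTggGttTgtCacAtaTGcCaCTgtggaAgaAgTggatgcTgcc
In Hnrnpl (chr7:28815133-28815192, + strand) and Hnrnpll (chr17:80048768-80048827, - strand) 48 bases are identical, and 10 differences are at the third codon position.
Hnrnpl: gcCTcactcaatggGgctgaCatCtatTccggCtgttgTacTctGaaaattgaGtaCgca
Hnrnpll: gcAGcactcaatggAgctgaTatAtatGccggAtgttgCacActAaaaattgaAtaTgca
Srsf7 (chr17:80205886-80205945, - strand) and Srsf3 (chr17:29036351-29036410, + strand) share 46 bases, and 11 differences are at the third codon position.
Srsf7: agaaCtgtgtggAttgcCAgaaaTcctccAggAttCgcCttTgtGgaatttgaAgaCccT
Srsf3: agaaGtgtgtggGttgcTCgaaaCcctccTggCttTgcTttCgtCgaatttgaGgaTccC
Hnrnph1 (chr11:50379838-50379897, + strand) and Hnrnph2 (chrX:134605178-134605237, + strand), a pair whose members kept nearly the same ratio, share 56 bases and differ at 4 bases, all at the third codon position.
Hnrnph1: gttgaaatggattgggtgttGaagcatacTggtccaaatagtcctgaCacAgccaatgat
Hnrnph2: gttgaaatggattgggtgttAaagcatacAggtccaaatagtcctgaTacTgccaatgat
The GC content of these stretches was 66.7% in Hnrnpa0 against 51.7% in Hnrnpa1, and 48.3% in Hnrnpl against 40.0% in Hnrnpll. It was 55.0% in Srsf9 against 51.7% in Srsf1, 46.7% in Srsf7 against 51.7% in Srsf3, and 43.3% in Hnrnph1 against 40.0% in Hnrnph2. Over the whole coding sequence, the last base of the codon was G or C in 93.8% of codons in Hnrnpa0 and 42.4% in Hnrnpa1, 64.7% in Hnrnpl and 47.0% in Hnrnpll, and 66.2% in Srsf9 and 58.5% in Srsf1. In Srsf7 it was so in 32.4% and in Srsf3 in 36.0%, and in Hnrnph1 in 40.1% and in Hnrnph2 in 42.5%.

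The libraries held between 28937122 and 38454620 counted reads. Expression is given as TMM-scaled CPM, the counts of a gene relative to the scaled total of its library, and a gene is said to have risen or fallen where edgeR's quasi-likelihood test gave an adjusted p below 0.05. Epas1, which encodes HIF2α, held 44.2, 25.9 and 31.9 CPM in the ΔIEC-labelled libraries and 12.2, 19.4 and 17.5 CPM in the control-labelled libraries. The targeted gene was thus higher in the libraries labelled ΔIEC (log2 fold change 1.06, SE 0.28, and 1.003 corrected as described further on), against the label. Counts per gene include exons outside a deleted part, and the reason for the higher level was not tested. Every direction is therefore that of the libraries labelled ΔIEC against those labelled control. Whether libraries of 1 group stem from different mice is not stated, so the tests measure only the spread between these libraries. The libraries also differed by group in how reads followed GC content, with slopes of -0.79, -0.89 and -0.64 log2 units per 10% GC in the ΔIEC-labelled libraries and 0.96, 0.93 and 0.44 in the control-labelled ones.

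Most SR and hnRNP genes were higher in the libraries labelled ΔIEC. Of the 31 members, 30 had enough reads for the test, with at least 143 reads in every library. Without correction 22 of the 30 rose, 3 fell (Srsf9, Hnrnpa0 and Hnrnpl) and 5 did not pass the threshold (Srsf2, Srsf4, Srsf6, Hnrnpab and Hnrnpul1). Across all 15143 tested genes 37.2% rose and 29.7% fell, 66.9% in all. None of the 30 members passed the filter on low counts only through the group in which it was higher. The median log2 fold change was 1.65 for the members and 0.15 for all tested genes. The groups lay apart, with no overlap of their values, for 23 members that were higher and 4 that were lower, against 39% and 33.6% of all tested genes (72.6% in either direction). Summed over the family, SR genes held 1779 ± 167 CPM in the ΔIEC-labelled libraries and 1026 ± 151 CPM in the control-labelled libraries, and hnRNP genes 3829 ± 311 CPM under the ΔIEC label and 2208 ± 216 CPM under the control label (SD, n = 3 each). In bulk RNA, fewer cells of a type and less RNA per cell cannot be told apart.

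**Figure D1:**
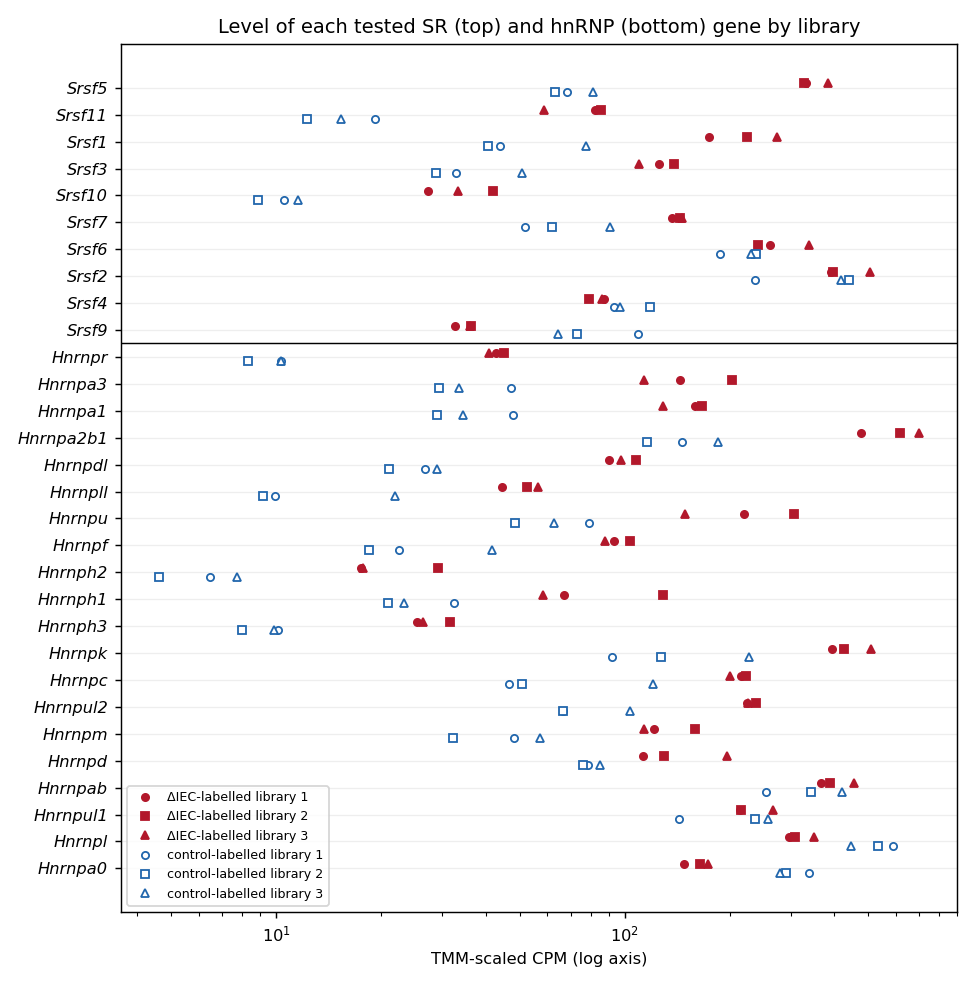
TMM-scaled CPM (log axis) of each of the 30 tested SR and hnRNP genes, 1 row a gene, ordered by uncorrected log2 fold change within each family; filled red symbols are the 3 ΔIEC-labelled libraries and open blue symbols the 3 control-labelled libraries, with the symbol's shape marking the library. Red lies to the right of blue in 23 rows and to the left in 4 (Srsf4, Srsf9, Hnrnpa0 and Hnrnpl), and the colours overlap in 3 (Srsf2, Hnrnpab and Hnrnpul1).

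Among the SR genes, 6 of 10 rose, 1 fell and 3 did not pass (median 1.39). Srsf5 (ENSMUSG00000021134.17, chromosome 12, 80945504 to 80950507), whose activity responds to insulin, had 332, 327 and 383 CPM in the ΔIEC-labelled libraries and 68.5, 63.3 and 81.4 CPM in the control-labelled ones. Its groups lie far apart, and its log2 fold change of 2.29 ± 0.22 was the largest of the 30 members. Srsf11, an SR-like protein that contacts the U2AF splice site factor, held 82.5, 85.6 and 58.7 CPM in the libraries labelled ΔIEC and 19.3, 12.3 and 15.4 CPM in those labelled control (log2 fold change 2.27 ± 0.27). For Srsf1 (ENSMUSG00000018379.17, chromosome 11, 88047373 to 88053755), the founding member of the family and a binder of purine-rich exonic enhancers, the ΔIEC-labelled libraries held 175, 225 and 273 CPM and the control-labelled libraries 44.0, 40.6 and 77.2 CPM (log2 fold change 2.06 ± 0.29). Control-labelled library 3 was the highest of its group for both Srsf5 and Srsf1, yet stayed below every ΔIEC-labelled library.

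Srsf3, the smallest SR protein and an adaptor for mRNA export, measured 125, 138 and 109.7 CPM in the ΔIEC-labelled libraries against 32.9, 28.7 and 50.9 CPM in the control-labelled ones (log2 fold change 1.73 ± 0.26). Srsf10, which represses splicing once it loses its phosphates, was less abundant, with 27.3, 42.0 and 33.2 CPM under the ΔIEC label against 10.5, 8.89 and 11.6 CPM under the control label (log2 fold change 1.72 ± 0.26). Srsf7, a relative of Srsf3 with a zinc knuckle, reached 137, 144 and 146 CPM in libraries labelled ΔIEC and 51.9, 61.9 and 90.6 CPM in those labelled control. Its log2 fold change of 1.06 ± 0.24 was the smallest among the 6 SR genes that rose. Srsf12, the paralog of Srsf10, was too low for the test, with 24, 10 and 7 reads in the ΔIEC-labelled libraries and 0, 1 and 3 in the control-labelled ones, where a count of 0 allows up to 3 reads.

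Srsf9 (ENSMUSG00000029538.14, chromosome 5, 115327177 to 115333080), the closest paralog of Srsf1, was the SR gene that fell. It held 32.7, 36.3 and 35.9 CPM in the ΔIEC-labelled libraries and 109, 72.9 and 64.4 CPM in the control-labelled libraries, a log2 fold change of -1.23 ± 0.25. The ΔIEC-labelled values lie within 4 CPM of each other, and control-labelled library 1 was the highest of its group. Srsf2, a protein of nuclear speckles, held 392, 396 and 505 CPM under the ΔIEC label against 237, 439.9 and 419 CPM under the control label, where control-labelled library 1 alone was lower than the rest and the groups overlap (log2 fold change 0.24 ± 0.26). The long-tailed SR proteins Srsf6 and Srsf4 did not pass either. Srsf6 measured 262, 242 and 338 CPM in the ΔIEC-labelled libraries against 188, 238 and 231 CPM in the control-labelled ones (log2 fold change 0.36 ± 0.22), and the lowest ΔIEC-labelled library stood just above the highest control-labelled one. Srsf4 measured 87.2, 79.0 and 86.1 CPM under the ΔIEC label against 92.9, 118 and 97.0 CPM under the control label (log2 fold change -0.29 ± 0.21).

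Of the 20 hnRNP genes, 16 rose, 2 fell and 2 did not pass (median 1.65). In the A/B subfamily, whose members bind UAG-containing silencers, Hnrnpa2b1 (ENSMUSG00000004980.16, chromosome 6, 51460932 to 51469894) had 475, 618 and 701 CPM in the ΔIEC-labelled libraries and 146, 116 and 186 CPM in the control-labelled libraries (log2 fold change 2.0 ± 0.26). Hnrnpa1, the best studied antagonist of Srsf1, held 159, 167 and 129 CPM under the ΔIEC label against 47.9, 28.9 and 34.4 CPM under the control label (log2 fold change 2.03 ± 0.25). Hnrnpa3, a close relative of both, held 145, 203 and 114 CPM under the ΔIEC label against 47.1, 29.4 and 33.6 CPM under the control label (log2 fold change 2.07 ± 0.28). For Hnrnpa1 and Hnrnpa3 alike, ΔIEC-labelled library 2 was the highest and control-labelled library 2 the lowest of the 6. Hnrnpa0 (ENSMUSG00000007836.6, chromosome 13, 58125879 to 58128556), a gene without introns whose protein binds AU-rich elements of cytokine mRNAs, went the other way. It fell to 148, 165 and 173 CPM in the ΔIEC-labelled libraries, against 337, 291 and 279 CPM in the control-labelled ones (log2 fold change -0.90 ± 0.21).

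The relatives of Hnrnpd, known as AUF1 for its action on AU-rich mRNAs, differed among themselves. Hnrnpd held 113, 130.1 and 197 CPM in the ΔIEC-labelled libraries and 78.7, 76.0 and 85.2 CPM in the control-labelled libraries, and its log2 fold change of 0.87 ± 0.25 was the smallest among hnRNP genes that rose. Its call was lost without ΔIEC-labelled library 3 (0.59) or control-labelled library 2 (0.78). Hnrnpdl measured 90.4, 108 and 97.7 CPM under the ΔIEC label against 26.8, 21.1 and 28.9 CPM under the control label (log2 fold change 1.95 ± 0.23), and Hnrnpab 366, 388 and 454 CPM under the ΔIEC label against 255, 342 and 419 CPM under the control label with overlapping groups (log2 fold change 0.25 ± 0.24). Hnrnpc, which binds uridine tracts and measures the length of nascent RNA, had 215, 223 and 201 CPM in libraries labelled ΔIEC and 46.7, 50.6 and 121 CPM in those labelled control (log2 fold change 1.55 ± 0.34). For Hnrnpc, control-labelled library 3 held more than both other control-labelled libraries together.

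In the group that binds runs of guanine, Hnrnph1 had 67.0, 129 and 58.2 CPM in the ΔIEC-labelled libraries and 32.4, 20.9 and 23.3 CPM in the control-labelled libraries (log2 fold change 1.73 ± 0.32). ΔIEC-labelled library 2 was far above the other two for this gene. The rarer Hnrnph2 held 17.5, 29.1 and 17.8 CPM under the ΔIEC label against 6.48, 4.61 and 7.71 CPM under the control label (log2 fold change 1.78 ± 0.31) and Hnrnph3 25.4, 31.6 and 26.4 CPM under the ΔIEC label against 10.1, 7.99 and 9.86 CPM under the control label (log2 fold change 1.58 ± 0.25). Hnrnpf, the fourth of this group, measured 93.2, 104 and 87.6 CPM under the ΔIEC label against 22.5, 18.5 and 41.8 CPM under the control label (log2 fold change 1.78 ± 0.30).

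Hnrnpk, a binder of cytosine-rich RNA and DNA, held 395, 426 and 509.7 CPM in the ΔIEC-labelled libraries and 92.2, 127 and 228 CPM in the control-labelled libraries (log2 fold change 1.57 ± 0.31), with a wide spread in the control-labelled group. Hnrnpl (ENSMUSG00000015165.16, chromosome 7, 28808541 to 28822266), which binds CA repeats, fell to 296, 308 and 350.3 CPM in the ΔIEC-labelled libraries, against 589, 535 and 447 CPM in the control-labelled ones (log2 fold change -0.72 ± 0.21). The call was lost without ΔIEC-labelled library 1 (-0.66) or 2 (-0.69), and under total count scaling (-0.23). Its paralog Hnrnpll, known for switching the exons of CD45 in activated lymphocytes, rose, with 44.5, 52.4 and 56.4 CPM under the ΔIEC label against 9.90, 9.18 and 21.9 CPM under the control label (log2 fold change 1.90 ± 0.34). The 12 markers of lymphocytes and other leukocytes summed to 777, 551 and 150 CPM in the ΔIEC-labelled libraries and to 179, 344 and 246 CPM in the control-labelled libraries. Their part in the level of Hnrnpll was not tested.

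Of the remaining hnRNP genes, Hnrnpr, a relative of the mRNA-binding protein Syncrip, had 42.9, 45.0 and 40.8 CPM in libraries labelled ΔIEC and 10.4, 8.31 and 10.3 CPM in those labelled control, the largest log2 fold change of an hnRNP gene at 2.15 ± 0.24. Hnrnpu, the scaffold attachment factor that organises chromatin and binds Xist RNA, held 220.0, 306 and 149 CPM under the ΔIEC label against 78.9, 48.4 and 62.6 CPM under the control label (log2 fold change 1.83 ± 0.29). Hnrnpm, a regulator of epithelial and mesenchymal splice forms, held 122, 159 and 114 CPM under the ΔIEC label against 48.2, 32.3 and 57.1 CPM under the control label (log2 fold change 1.52 ± 0.26). The U-like genes differed: Hnrnpul2 measured 224, 239 and 226 CPM under the ΔIEC label against 66.6, 66.4 and 103 CPM under the control label (log2 fold change 1.54 ± 0.24), and Hnrnpul1, which works in DNA repair, 214, 216 and 266 CPM under the ΔIEC label against 143, 237 and 258 CPM under the control label with overlapping groups (log2 fold change 0.13 ± 0.25).

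Levels of different genes are compared per kilobase of median annotated transcript length. In the mean of the 6 libraries Hnrnpk stood at 386 CPM per kb by this length, Srsf2 at 299, Hnrnpa2b1 at 241 and Hnrnpl at 228, and Hnrnph2 at 5.86. The make-up of each family differed between the groups on this scale. Srsf2 made up 25.4 ± 1.5% of the SR total in the ΔIEC-labelled libraries and 38.8 ± 7.57% in the control-labelled ones, and Srsf9 2.37 ± 0.16% under the ΔIEC label and 10.6 ± 4.82% under the control label (SD, n = 3 each). Srsf1 took 19.5 ± 2.56% under the ΔIEC label and 8.57 ± 2.44% under the control label, and Srsf5 18.3 ± 0.67% under the ΔIEC label and 6.89 ± 1.03% under the control label. Within the hnRNP family, Hnrnpk held 21.1 ± 2.51% in the ΔIEC-labelled and 14.1 ± 4.93% in the control-labelled libraries, with an overlap of its groups. Hnrnpa2b1 held 14.0 ± 1.94% under the ΔIEC label and 7.11 ± 0.87% under the control label, whereas Hnrnpl held 6.28 ± 0.60% under the ΔIEC label and 21.5 ± 5.07% under the control label. These levels and shares depend on the length used. The median annotated transcript of Hnrnpk, 768 bases, is shorter than its coding sequence of 1389 bases. Per kb of the longest annotated transcript, an alternative chosen after seeing the data, Srsf2 had 209.6 CPM per kb, Hnrnpl 157, Hnrnpab 156, Hnrnpa2b1 103 and Hnrnpk 99.7. On that scale Hnrnpk held 13.2 ± 1.11% of the hnRNP total under the ΔIEC label and 6.76 ± 2.55% under the control label, and Srsf1 held 6.66 ± 0.93% of the SR total under the ΔIEC label and 2.37 ± 0.73% under the control label. Srsf2 then held 36.2 ± 1.89% of the SR total under the ΔIEC label and 44.7 ± 8.31% under the control label, with overlapping groups. The order of the genes by level thus differed between the lengths, while the uncorrected fold change of a gene and the difference in log2 ratio of a pair do not depend on them.

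The fold changes of the members followed the GC content of their transcripts. Annotated transcripts of the members ranged from 40.9% to 55.4% GC, and 25 of the 30 lay below the median of all tested genes, 51.0%. The 2 lowest deciles of all tested genes by GC content held 17 members, 56.7% of them, and the 2 highest held none. In those lowest deciles the median log2 fold change of all genes was 1.6 and 1.69, and 79.5% and 80.3% of all genes rose. The medians of the 6 and 11 members there were 1.75 and 2.0. At the other end, Hnrnpa0 was the member richest in GC and lay in the eighth decile, where the median of all genes was -0.88, beside its own -0.90. Across the 30 members, which share the same 6 libraries, fold change and GC content had a Pearson correlation of -0.77 and a Spearman correlation of -0.55, beside -0.71 and -0.74 across all tested genes. Srsf9 and Srsf2, with -1.23 and 0.24, lay in the fourth decile, where the median of all genes was 1.09. Hnrnpm, with 1.52, lay in the fifth decile, where that median was 0.63.

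**Figure D2:**
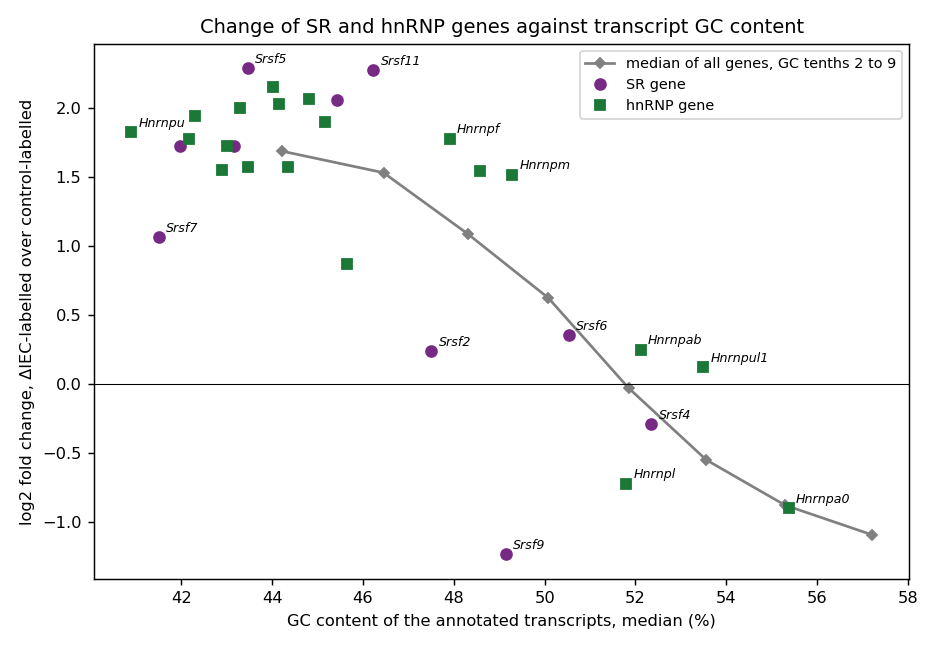
Uncorrected log2 fold change, ΔIEC-labelled over control-labelled libraries, of each tested SR gene (purple circles) and hnRNP gene (green squares) against the median GC content of its annotated transcripts in percent; the grey line joins the medians of all tested genes in the deciles of GC content from the second to the ninth. Most members lie at the low-GC end, with log2 fold changes of up to 2.29, while Srsf9 at -1.23 lies far below the line.

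Within the groups the members did not order the libraries evenly. ΔIEC-labelled library 2, with a GC slope of -0.89 over all genes, was the highest of all 6 libraries for 15 of the 30 members. ΔIEC-labelled library 3, at -0.64, was the highest for 11, and ΔIEC-labelled library 1, at -0.79, for 0. Control-labelled library 2, at 0.93, was the lowest of the 6 for 19 members, and control-labelled library 1, at 0.96, for 7. Control-labelled library 3, at 0.44, was the highest control-labelled library for 17 members. The median deviation of the members from their mean over the 6 libraries, in log2 CPM, was 0.68, 1.05 and 0.71 in ΔIEC-labelled libraries 1 to 3. In control-labelled libraries 1 to 3 it was -0.76, -1.16 and -0.38. A link between the order of the libraries and their slopes was not tested.

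Each library's trend with GC content and length was then removed, a step that takes away true group differences that follow them as well, and most member calls did not pass. After this correction 6 of the 30 members were higher (Srsf11, Hnrnpm, Srsf5, Srsf1, Hnrnpf and Hnrnpr), 3 were lower (Srsf9, Hnrnpl and Srsf2) and 21 did not pass. Of 15135 genes with the correction, 14.3% rose and 15.6% fell, 29.9% in all. The median log2 fold change was 0.30 for the members and -0.02 for all genes, and by family 0.01 for SR genes and 0.34 for hnRNP genes. Groups did not overlap for 11 members that were higher and 5 that were lower, against 22.4% and 25.1% of all genes (47.5% in either direction). The fold change became smaller or more negative for 27 members and larger for 3, and 4 changed sign (Srsf2, Srsf6, Srsf7 and Hnrnpd). Within the SR family 3 rose, 2 fell and 5 did not pass, and within the hnRNP family 3 rose, 1 fell and 16 did not pass.

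Srsf5 and Srsf9 were the members called with the correction that also kept the call without each library in turn. Srsf5 had corrected log2 CPM of 7.62, 7.43 and 8.06 in the ΔIEC-labelled libraries and 6.89, 6.91 and 6.83 in the control-labelled ones, a corrected log2 fold change of 0.86 ± 0.19 that ranged from 0.63 to 0.99 without single libraries. Srsf9 had 4.59, 4.79 and 4.79 in the ΔIEC-labelled libraries and 7.4, 6.65 and 6.13 in the control-labelled ones. Its corrected log2 fold change of -2.09 ± 0.30 was more negative than without the correction and ranged from -2.36 to -1.69. Both sets of 3 values lie apart in each gene.

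Each of the other 7 corrected calls was lost without at least 1 library, where fewer libraries enter the test. Srsf11 reached 1.03 ± 0.23 and lost the call without control-labelled library 2 (0.93). Hnrnpm, at 0.90 ± 0.22, lost it without ΔIEC-labelled library 2 (0.75) or control-labelled library 2 (0.71). For Srsf1, at 0.84 ± 0.24, the call did not pass without ΔIEC-labelled library 2 (0.90) or 3 (0.57) or without control-labelled library 1 (0.78) or 2 (0.76), nor with GC content and length taken from the longest transcript (0.46). Hnrnpf, at 0.77 ± 0.21, passed in full and without control-labelled library 3, and missed the threshold without each of the other 5 libraries, at 0.58 to 0.83. Hnrnpr, at 0.67 ± 0.18, passed in full and without control-labelled library 1, and missed it without each of the other 5, at 0.57 to 0.73, and with the longest transcript (0.44). Srsf2, at -0.86 ± 0.24, missed it without ΔIEC-labelled library 1 (-0.75) or 2 (-0.78) or control-labelled library 2 (-0.62), and stood at 0.051 with the longest transcript. Hnrnpl, at -0.90 ± 0.20, missed it without ΔIEC-labelled library 1 (-0.84) and with the longest transcript (-0.12). Of other members, Hnrnpk had a corrected log2 fold change of 0.32 ± 0.28, Hnrnpa2b1 of 0.58 ± 0.22 and Hnrnpu of 0.41 ± 0.21, none past the threshold. Hnrnpa0 was at -0.39 ± 0.15 and no longer passed.

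**Figure D3:**
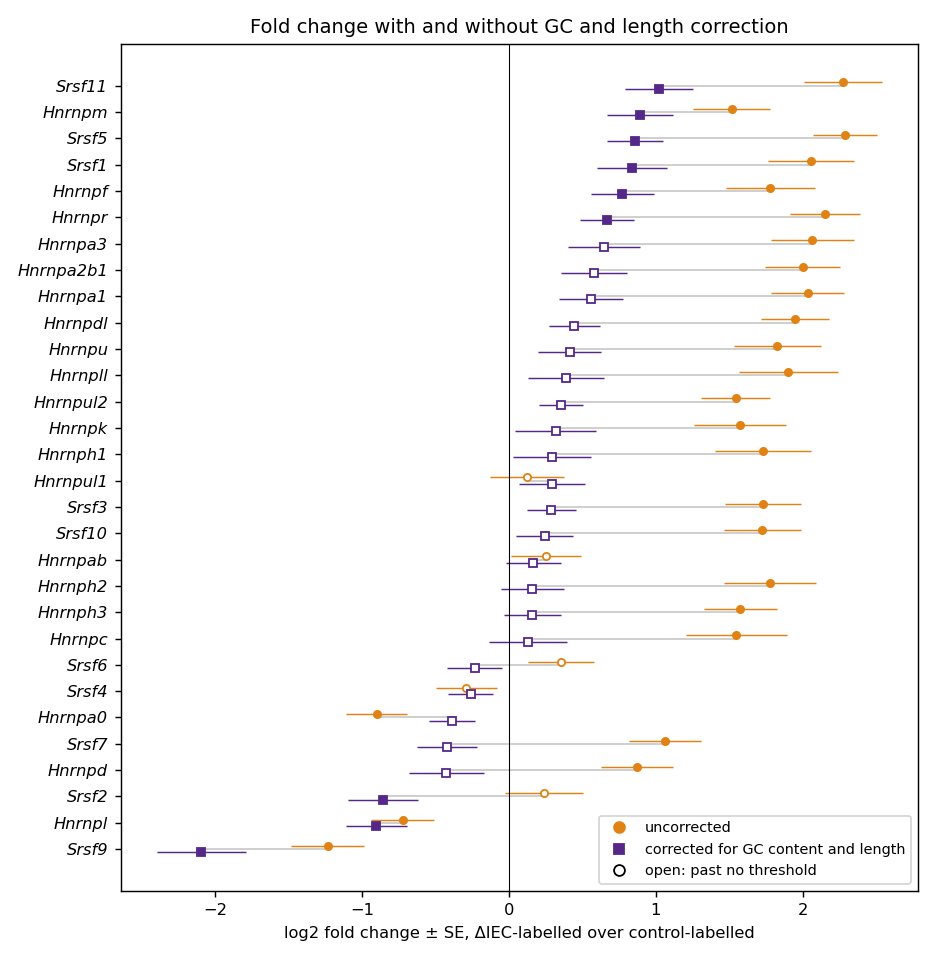
Log2 fold change with its SE, ΔIEC-labelled over control-labelled libraries, of the 30 tested members without correction (orange circles) and with correction for GC content and length (purple squares), ordered by the corrected value; filled symbols passed an adjusted p of 0.05 and open ones did not. All but 3 members move to the left with the correction, and Srsf9 ends at -2.09.

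Ratios of paralogs within a library do not depend on how the library is scaled, and they differed between the groups for most pairs. Srsf9 mRNA per kb of transcript stood to Srsf1 mRNA as 0.144, 0.124 and 0.101 to 1 in the ΔIEC-labelled libraries and as 1.91, 1.38 and 0.643 to 1 in the control-labelled ones. The difference in log2 ratio was -3.29, and -2.81 after correction, with groups apart both times. The ratio of Hnrnpa0 to Hnrnpa1 was 0.604, 0.641 and 0.871 in libraries labelled ΔIEC and 4.57, 6.52 and 5.26 in those labelled control (difference -2.95, corrected -0.99). Hnrnpl stood to Hnrnpll as 10.8, 9.55 and 10.1 to 1 under the ΔIEC label and 96.8, 94.8 and 33.2 to 1 under the control label (difference -2.73, corrected -1.29). In each of these 3 pairs the gene with the lower relative level under the ΔIEC label ends more of its codons in G or C. The ratio of Srsf7 to Srsf3 was 0.861, 0.820 and 1.05 in the ΔIEC-labelled and 1.24, 1.70 and 1.40 in the control-labelled libraries (difference -0.66, corrected -0.72), although Srsf7 is the one with less GC at 41.5% against 43.2% in Srsf3. The groups of these last 3 pairs also stayed apart after correction.

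In the other pairs the corrected groups overlapped. Srsf4 to Srsf6 gave a mean ratio of 0.43 in the ΔIEC-labelled libraries and 0.66 in the control-labelled ones (difference in log2 ratio -0.63, corrected -0.01). Hnrnpab to Hnrnpdl gave 3.75 under the ΔIEC label and 12.3 under the control label (-1.68, corrected -0.26), and Hnrnpul1 to Hnrnpul2 gave 1.51 under the ΔIEC label and 4.09 under the control label (-1.41, corrected -0.03). For Hnrnph1 to Hnrnph2, the pair with the most alike stretch, the ratio was 10.5, 12.1 and 8.94 in the ΔIEC-labelled libraries and 13.7, 12.4 and 8.26 in the control-labelled ones, with overlapping groups (difference -0.10, corrected 0.14).

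**Figure D4:**
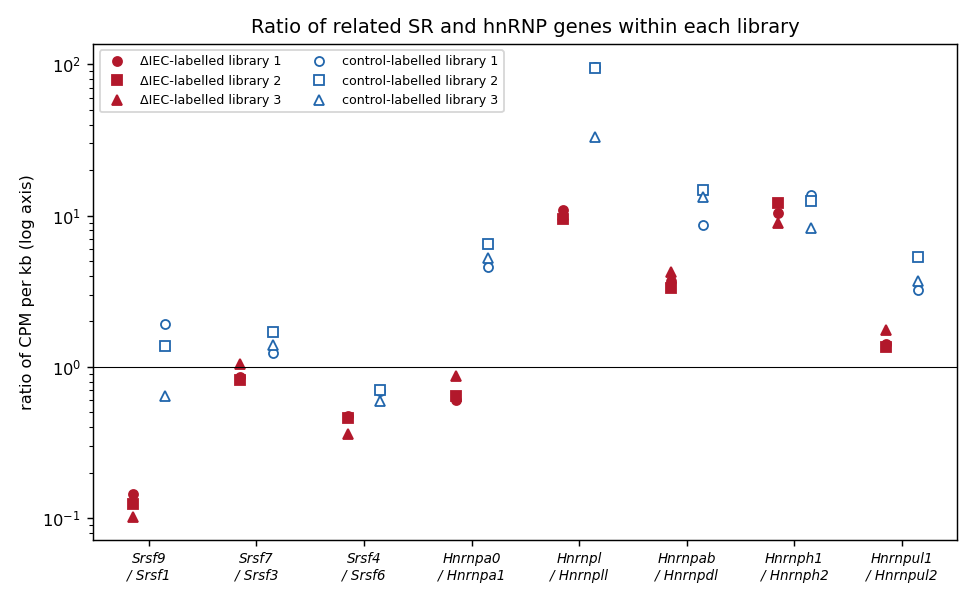
Ratio of CPM per kb (log axis) of the first gene to the second in 8 pairs of related SR and hnRNP genes, 1 symbol a library, with filled red symbols for the ΔIEC-labelled and open blue symbols for the control-labelled libraries. The largest difference in mean log2 ratio, -3.29, is that of Srsf9 to Srsf1, at 0.10 to 0.14 in the ΔIEC-labelled libraries and 0.64 to 1.91 in the control-labelled ones, and only Hnrnph1 to Hnrnph2 has groups that overlap.

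What the members share apart from their symbols includes a rich set of annotated isoforms. A transcript marked as a target of nonsense-mediated decay was annotated for 19 of the 30 tested members, 9 of 10 SR genes and 10 of 20 hnRNP genes. Among all 13256 tested protein-coding genes 28.0% had one, against 63.3% of the members. A transcript with a retained intron was annotated for 73.3% of the members and 57.6% of those genes. Reads were counted per gene, so the decay targets and productive mRNAs of a member are summed in its level.

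Promoters were searched on both strands for 5-letter cores of the hypoxia response element, ACGTG and GCGTG, and for the ETS-like motif CCGGAAG, in windows of 250 bases before to 50 after a RefSeq transcription start (GRCm38.p6). Entries were found for 29 of the 31 members, 41 in all; Hnrnpll and Hnrnpul2 had none. ACGTG occurred in 34.1% of the member windows and 19.6% of 32851 windows of all genes, GCGTG in 53.7% and 32.4%, and CCGGAAG in 24.4% and 8.86%. Some windows of 1 gene overlap, so that 1 site can count in more than 1 window. By gene, ACGTG occurred in 12 of the 29 members, GCGTG in 16 and CCGGAAG in 6. No share by gene was taken over all genes, so these counts have no reference beside them. The windows of all genes were not matched to those of the members for GC content or for windows per gene. The hypoxia cores share their last 4 letters, so that a site counts under 1 of them, and a match is a string of letters, not a bound site. The 150 bases up to the start are shown for a member with both cores there, one with GCGTG more than once that rose after correction, and one without either that fell. The second of these, Hnrnpm, also held ACGTG in its searched window, outside the bases shown. These examples were picked by core and direction, so they show no link between them. Cores are in capitals, written CACGT or CACGC where they lie on the other strand. Hnrnpa2b1 is on chr6:51469895-51470044 (- strand), Hnrnpm on chr17:33685459-33685608 (- strand) and Srsf9 on chr5:115327027-115327176 (+ strand).
Hnrnpa2b1: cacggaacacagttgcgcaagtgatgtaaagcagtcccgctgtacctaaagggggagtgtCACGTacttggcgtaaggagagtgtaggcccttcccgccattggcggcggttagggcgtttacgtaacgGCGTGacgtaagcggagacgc
Hnrnpm: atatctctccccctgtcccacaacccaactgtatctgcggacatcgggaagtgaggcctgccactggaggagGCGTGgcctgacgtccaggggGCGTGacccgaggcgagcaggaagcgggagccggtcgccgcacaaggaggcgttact
Srsf9: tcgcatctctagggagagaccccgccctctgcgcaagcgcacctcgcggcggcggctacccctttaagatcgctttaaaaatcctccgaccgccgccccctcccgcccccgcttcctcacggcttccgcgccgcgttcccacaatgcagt
The GC content of these stretches was 58.0%, 65.3% and 66.7% in this order. Hnrnpa1, which rose without correction, and Hnrnpl, which fell, held 1 of the cores each. Srsf5, Srsf7, Hnrnpc and Hnrnpk, which rose without correction, held neither core, and nor did Srsf9 and Hnrnpa0, which fell. A link between the cores and the direction of change was not tested.

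Some member levels cannot be separated from those of other genes, since strand and multiple mapping are not given in the sources used here. An annotated gene overlapped 14 members, among them Mettl23 and Mfsd11 on the opposite strand of Srsf2, and March2 on the same strand as Hnrnpm. Near-identical copies were defined as other annotated genes, overlapping ones included, with a transcript of at least 95% identity over 300 bases. They existed for 16 members, with 26 for Hnrnpa3 and 9 for Hnrnpa1. Over the 6 libraries these held reads for 15 members, above 1% of the member's own reads for 7. For Hnrnpm, Srsf2, Srsf4, Hnrnpf, Hnrnpab and Hnrnpd the one with most reads was an overlapping gene, and its reads are all those counted for that gene. The most stood beside Hnrnpm, one of the members higher after correction, where the overlapping March2 held 9606 reads against 18583 of Hnrnpm, or 51.7%. March2 had 25.8, 29.2 and 27.2 CPM in the ΔIEC-labelled libraries and 91.7, 66.2 and 56.2 CPM in the control-labelled ones, lower where Hnrnpm was higher. Mettl23 held 6119 reads beside 81491 of Srsf2 (7.51%), and Phykpl 2766 beside 75959 of Hnrnpab (3.64%). The copies of Hnrnpa3 and Hnrnpa1 held 51 reads beside 20085 and 22 beside 20012.

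Genes that act with SR and hnRNP proteins were grouped by role, in lists chosen with earlier results of these data known. Their counts stand beside 37.2% of all tested genes that rose and 29.7% that fell without correction, and 14.3% and 15.6% with it. Those named are the members of a list with the smallest adjusted p after correction. Of 12 tested SR kinases and phosphatases, 8 rose and 2 fell without correction, and 1 rose and 2 fell with it (medians 1.34 and 0.28). Clk2, a kinase that frees SR proteins from nuclear speckles, held 65.1, 65.0 and 67.7 CPM in the ΔIEC-labelled and 44.1, 69.5 and 63.8 CPM in the control-labelled libraries and passed with the correction alone (log2 fold change 0.16, corrected 0.79). The phosphatase Ppp1ca held 241, 276 and 288 CPM under the ΔIEC label against 943, 650.5 and 503 CPM under the control label and fell both times (-1.38, corrected -0.78), as did Clk3 (-0.56, corrected -0.57). Of 3 importins of SR and hnRNP proteins, the SR importin Tnpo3 rose (2.36, corrected 0.79) and Tnpo2 fell (-0.66, corrected -0.54). None of these 5 corrected calls held throughout: each was lost without ΔIEC-labelled library 1 or 2 or control-labelled library 2, at 0.80, 0.80 and 0.84 for Clk2, -0.72, -0.80 and -0.86 for Ppp1ca, -0.50, -0.56 and -0.54 for Clk3, 0.66, 0.74 and 0.65 for Tnpo3, and -0.47, -0.51 and -0.51 for Tnpo2. Clk2 was also lost without ΔIEC-labelled library 3 (0.76), Tnpo3 without control-labelled library 3 (0.73) and Tnpo2 without control-labelled library 1 (-0.49). The uncorrected call of Clk3 was lost without any ΔIEC-labelled library or control-labelled library 2 (-0.64 to -0.49), and that of Tnpo2 without ΔIEC-labelled library 1 or 2 or control-labelled library 2 (-0.65 to -0.59).

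Of 22 SR-related proteins, 15 rose and 3 fell without correction, and 6 rose and 1 fell with it (medians 1.48 and 0.22). The corrected increases numbered 2 without ΔIEC-labelled library 1 or control-labelled library 2, and 3 without ΔIEC-labelled library 3. Scaf8, which binds the tail of RNA polymerase II, held 41.7, 38.4 and 37.4 CPM in the ΔIEC-labelled libraries against 7.79, 5.12 and 7.22 CPM in the control-labelled ones (log2 fold change 2.55, corrected 1.62). Acin1, an RNA-binding partner of the exon junction complex, held 203, 197 and 225 CPM under the ΔIEC label against 134, 151 and 168 CPM under the control label and passed with the correction alone (0.47, corrected 0.96). The corrected calls of both kept their side of the threshold without each library in turn. Luc7l of the U1 particle was higher (1.24, corrected 0.74, lost without ΔIEC-labelled library 1 at 0.75 or control-labelled library 2 at 0.66). Rnps1, which accompanies the exon junction complex, was lower (-0.63, corrected -0.73), and both calls were lost without ΔIEC-labelled library 1 (-0.56, corrected -0.66) or 2 (-0.60, corrected -0.70).

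Of 14 hnRNP proteins under other names, 8 rose and 4 fell, or 3 and 3 with the correction (medians 0.96 and 0.003). Elavl1, which stabilises AU-rich mRNAs, held 94.3, 101 and 94.1 CPM in the ΔIEC-labelled libraries and 45.8, 80.9 and 98.0 CPM in the control-labelled ones, with overlapping groups. It was lower with the correction alone (0.36, corrected -1.30), also without each library in turn. Other corrected calls were those of Ptbp2, the neuronal polypyrimidine tract protein (1.14), Tardbp (0.54) and the poly-C binder Pcbp2 (-0.67). Ptbp2 lost its call without ΔIEC-labelled library 3 (0.91) or control-labelled library 2 (1.04) or 3 (1.03), Tardbp without each library but control-labelled library 1 (0.48 to 0.60), and Pcbp2 without ΔIEC-labelled library 1 (-0.62) or 2 (-0.61) or control-labelled library 2 (-0.65).

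Of 25 other splicing regulators, 19 rose and 1 fell, or 6 and 0 with the correction in edgeR (medians 1.49 and 0.23), where 1 was lower at an unadjusted p below 0.05. Akap8, an anchoring protein of the nuclear matrix, held 87.3, 77.3 and 57.7 CPM in the ΔIEC-labelled libraries against 16.4, 9.53 and 15.7 CPM in the control-labelled ones (log2 fold change 2.41, corrected 1.85). The paraspeckle protein Nono held 190.1, 176 and 174 CPM under the ΔIEC label against 31.9, 28.1 and 67.3 CPM under the control label (2.09, corrected 1.27), and the helicase Ddx5 519, 581 and 394 CPM under the ΔIEC label against 112, 70.6 and 89.1 CPM under the control label (2.46, corrected 1.09). These 3 genes rose in both fits, and whichever single library was left out. Akap8l, the paralog of Akap8, passed with the correction alone (0.18, corrected 0.95).

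Of 45 core subunits of the spliceosome, 16 rose and 16 fell without correction, a share of each near that of all tested genes, and 10 rose and 10 fell with it (medians -0.16 and -0.13). Without ΔIEC-labelled library 1 the corrected counts were 5 and 6, and without control-labelled library 2 the corrected increases numbered 5. Sf3b5 of the U2 particle held 35.6, 38.0 and 42.3 CPM in the ΔIEC-labelled libraries against 158, 107 and 81.5 CPM in the control-labelled ones (log2 fold change -1.58, corrected -3.25). Of the Sm proteins that ring the small nuclear RNAs, Snrpf held 27.0, 28.1 and 36.3 CPM under the ΔIEC label against 78.7, 58.0 and 55.5 CPM under the control label (-1.07, corrected -2.44), Snrpd2 35.7, 40.0 and 45.0 CPM under the ΔIEC label against 117, 88.3 and 87.5 CPM under the control label (-1.28, corrected -1.82), and Snrpe was lower with the correction (-0.51, corrected -1.68). The corrected calls of these 4 genes kept their side of the threshold without each library in turn.

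Of 15 genes of the exon junction complex and nonsense-mediated decay, 3 rose and 4 fell, or 1 and 3 with the correction (medians 0.13 and -0.27). The uncorrected increases numbered 5 without control-labelled library 3, and the uncorrected decreases 2 without ΔIEC-labelled library 1 or 2. The junction core protein Rbm8a held 59.0, 63.5 and 50.9 CPM in the ΔIEC-labelled libraries and 46.9, 46.2 and 58.9 CPM in the control-labelled ones, and its partner Magoh 41.0, 42.6 and 55.7 CPM under the ΔIEC label and 37.3, 53.3 and 54.7 CPM under the control label. Their groups overlap, and both were lower with the correction alone (0.19, corrected -1.41, and -0.06, corrected -1.24), also without each library in turn. The corrected call of Magohb (-1.02) was lost without ΔIEC-labelled library 1 (-0.91) or 2 (-0.84) or control-labelled library 2 (-0.81) or 3 (-1.04). The decay factor Upf3a was higher (0.73, corrected 0.85), and both of its calls were lost without ΔIEC-labelled library 1 or 3 or control-labelled library 1 or 2 (0.58 to 0.71, corrected 0.70 to 0.83).

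**Figure D5:**
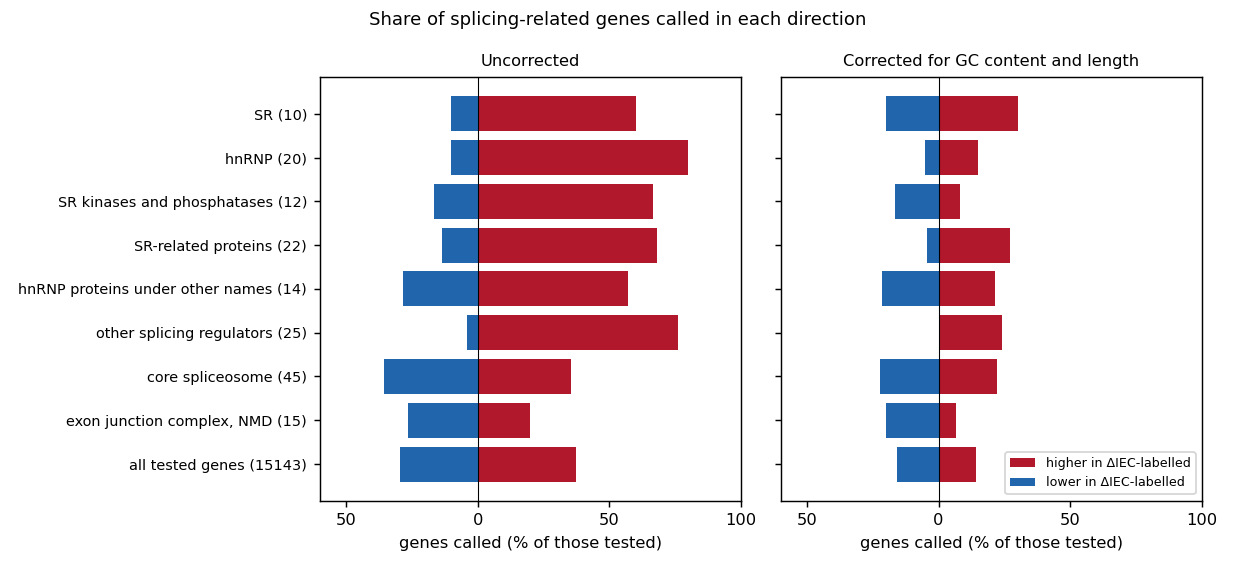
Share of tested genes called at an adjusted p below 0.05 in each list, higher (red, to the right) and lower (blue, to the left) in the ΔIEC-labelled libraries, without correction (left panel) and with correction for GC content and length (right panel); the number of genes tested without correction stands in brackets. The red bars of the SR and hnRNP families, 6 of 10 and 16 of 20 on the left, stand at 3 of 10 and 3 of 20 on the right, where the bar of all tested genes stands at 14.3%, beside 37.2% on the left.

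Sums of most marker lists lay apart between the groups, while those of leukocyte and stromal markers overlapped. The 8 epithelial markers summed to 12509 to 16037 CPM in the ΔIEC-labelled libraries and 23948 to 28597 CPM in the control-labelled ones. Of them 2 rose and 4 fell without correction, and 2 rose and 0 fell with it. The 9 villus enterocyte markers summed to 14868 to 18388 CPM under the ΔIEC label and 34631 to 49070 CPM under the control label. Of them 3 rose and 3 fell without correction, and 0 rose and 4 fell with it. The 11 crypt and cycling markers summed to 1569 to 1847 CPM in the ΔIEC-labelled libraries, of which Olfm4 made up 879 to 1122 CPM, and to 770 to 979 CPM in the control-labelled ones, with Olfm4 at 99.6 to 237 CPM. Of these markers 4 rose and 3 fell without correction and 2 rose and 2 fell with it. The 4 RNAs kept in the nucleus summed to 626 to 890 CPM in the ΔIEC-labelled libraries and 183 to 296 CPM in the control-labelled ones, of which Neat1 also passed with the correction (1.74, corrected 1.56). The 12 leukocyte markers summed to 150 to 777 CPM under the ΔIEC label and 179 to 344 CPM under the control label, the 10 stromal markers to 9.54 to 15.4 CPM under the ΔIEC label and 8.17 to 10.9 CPM under the control label, and the 4 globin genes to 6.11 to 29.4 CPM under the ΔIEC label and 50.4 to 72.7 CPM under the control label. No marker was at 0 in all 6 libraries, though Kdr of endothelium and Myh11 of smooth muscle were under 1 CPM in each. Their part in the levels of the SR and hnRNP genes was not tested.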

How the data were processed

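The deposited values were read counts, a normalised signal and regularised log2 values of the authors for 6 libraries of 55298 Ensembl genes. Per the submitters' processing notes, the tools were STAR 2.6.1c, Subread 1.6.1, SAMtools 1.8, cutadapt 1.18 and FastQC 0.11.8, and the build was GRCm38 (mm10). Settings for strand and multiple mapping are not given in the sources used. The deposited signal equals the deposited counts divided by 1 factor per library. On the authors' deposited log2 scale the difference between the group means was positive for 26 of the 30 tested members (-1.05 to 1.74).

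Libraries were grouped by their genotype label. Replicate numbers follow accession order and pair nothing. Identifiers were matched to GENCODE M21 without their version suffix (55117 of 55298). The robust quasi-likelihood test of edgeR 4.0.16 (with limma 3.58.1, R 4.3.3) was run on the counts of genes that passed filterByExpr, set to a minimum count of 10 and a minimum total of 15, scaled by TMM, with Benjamini-Hochberg adjustment over all tested genes and 0.05 as the threshold. Errors after ± are SE for log2 fold changes (size divided by the square root of F) and SD for levels. The correction took the deviation of a library from the mean of all, in log2 CPM with a prior count of 2, fitted it on GC content (natural spline with 6 degrees of freedom) and on log2 length (5), both medians over annotated transcripts, and passed the fit to edgeR as an offset. The steps were tested on simulated data. Total counts per library, 28937122 to 38454620, set the precision.

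Members, lists and tests were chosen with earlier results of these data known. All members are accounted for; from each list at most 4 genes past the threshold with the smallest adjusted p after correction were named. Promoter sequences are from RefSeq (GRCm38.p6). Alternatives were DESeq2 1.42.0 and its size factors, limma-voom, other scalings and filters, the GC slope as a covariate, GC content alone, the longest transcript (also for levels per kb, added after seeing the data), and each library left out.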

Additional observations from a re-analysis of the deposited data

How the results depend on the processing

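Without correction the member counts of 22 higher and 3 lower stayed within 1.5 times under DESeq2, its size factors, limma-voom, other filters, upper quartile scaling, total count scaling and each library left out. They were 22 to 23 higher and 2 to 3 lower without single libraries, with Srsf12 counted in the fits that tested it. The median of 1.65 stayed within 1.5 times as well (1.52 to 1.75 without single libraries, again with Srsf12 where tested). Total count scaling moved the median of all genes to 0.61, beside 0.15, and that of the members to 2.13, left 2660 genes lower in place of 4499, turned Srsf4 to 0.19 and put Srsf6 (0.82) and Hnrnpab (0.70) past the threshold; the split of all calls was then 6550 higher and 2660 lower, beside 5636 and 4499. Adding the GC slopes of the libraries as a covariate left 0 genes higher and 0 lower in edgeR, and so 0 members (355 genes and 2 members at an unadjusted p below 0.05), the median of the members was 0.21, and 15 members reversed: Srsf2 (-0.29), Srsf3 (-0.40), Srsf4 (0.092), Srsf7 (-0.63), Srsf9 (0.15), Hnrnpab (-0.80), Hnrnpc (-1.87), Hnrnpf (-0.97), Hnrnph2 (-0.081), Hnrnpk (-0.82), Hnrnpl (0.36), Hnrnpll (-0.88), Hnrnpm (-0.15), Hnrnpul1 (-0.76) and Hnrnpul2 (-0.14). The slope follows the groups, so this fit leaves little of the contrast. Hnrnpul1 ranged from -0.065, without control-labelled library 1, to 0.25 over the fits without single libraries. With the correction, 6 members were higher and 3 lower; without single libraries they numbered 1 to 7 and 1 to 4, with 1 higher without control-labelled library 2, 2 higher without ΔIEC-labelled library 2 and 1 lower without ΔIEC-labelled library 1. All genes called higher then numbered 1069 to 2025 (2162 in full) and lower 1121 to 2290 (2362 in full), and the median of the members was 0.20 to 0.42. Corrected reversals were those of Srsf2 (0.051), Srsf4 (0.012) and Hnrnpab (-0.058) with the longest transcript and Hnrnpc without control-labelled library 1 (-0.071, the lowest of -0.071 to 0.52 without single libraries). Corrected values newly past the threshold were Srsf6 (-1.05), Hnrnpdl (0.88) and Hnrnpul2 (0.75) with the longest transcript, Hnrnpul2 (0.64) with GC content alone, Hnrnpa1 (0.85), Hnrnpa3 (0.92) and Hnrnpu (0.62) without control-labelled library 1, and Hnrnpd (-0.80) without ΔIEC-labelled library 3. The cause of these changes was not tested. Srsf12 was too low for the test with all 6 libraries. No paired analysis was possible because the labels call the controls littermates but name no litter that links libraries of both groups.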
